A study of Mus musculus with 9 samples.

Results

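Integrins are the receptors by which cells hold on to bone matrix, vessel walls and each other, and the adaptors that gather on their tails tie them to the actin skeleton. The set described here holds the 25 integrin chains and 17 adaptors listed in the deposited gene table, 42 of its 22183 genes, chosen by symbol and not by any value. The alpha V and beta 5 chains were left out of it. Of the 42 genes, 41 passed the filter on low counts and were tested among 14211 genes. The remaining gene, Fermt1, which encodes the kindlin of epithelial cells, had no count in any of the 9 libraries, where 3 counts would correspond to 0.121 to 0.185 CPM (counts scaled to library size).

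Each integrin is a pair of an alpha and a beta chain, and the pair sets what is bound: collagen, laminin, proteins with the Arg-Gly-Asp (RGD) sequence, or the counter-receptors of leukocytes. Talins and kindlins bind the tail of the beta chain and switch the receptor on, the complex of ILK, PINCH and parvin links it to actin, and FAK, Src, paxillin and p130Cas carry its signals. In bone, osteoclasts seal themselves to the surface through integrins, osteoblasts and chondrocytes read their matrix with them, and marrow leukocytes, megakaryocytes and platelets carry forms of their own.

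Polyadenylated RNA of whole mouse tibiae was measured in 3 groups of 3 libraries. Ti+I-OG tibiae had titanium particles, a model of wear debris around an implant, and I-OG, an injectable natural-polymer hydrogel that holds the muscle hormone irisin, for 5 weeks. Ti tibiae had titanium particles without the hydrogel, and naive tibiae were left untreated. The integrin pathway is among those named in the submitters' design text. No group received the hydrogel without irisin or the injection without particles, so particles and procedure cannot be told apart, nor can hydrogel and irisin. The labels give no strain, sex, age or particle dose, and give a time for the hydrogel alone. They do not say that the libraries of a group come from different mice, so the spread behind each p-value may be technical.

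Total estimated counts ran from 16256082 to 24766516 per library, and the 42 genes took 0.337% to 0.787% of them. Markers of osteoclasts, bone matrix, cartilage, tendon, muscle, megakaryocytes and blood lineages were detected in every library. A pair of libraries stood apart for this gene set. Naive library 3 was the highest of the 9 for 18 of the 41 tested genes (43.9%, against 26.9% of all genes tested). Ti library 2 was the lowest for 15 of them (36.6%, against 16.3% of all genes) and the highest for 9. In bulk RNA, fewer cells of a type and less RNA per cell cannot be told apart.

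**Figure D1:**
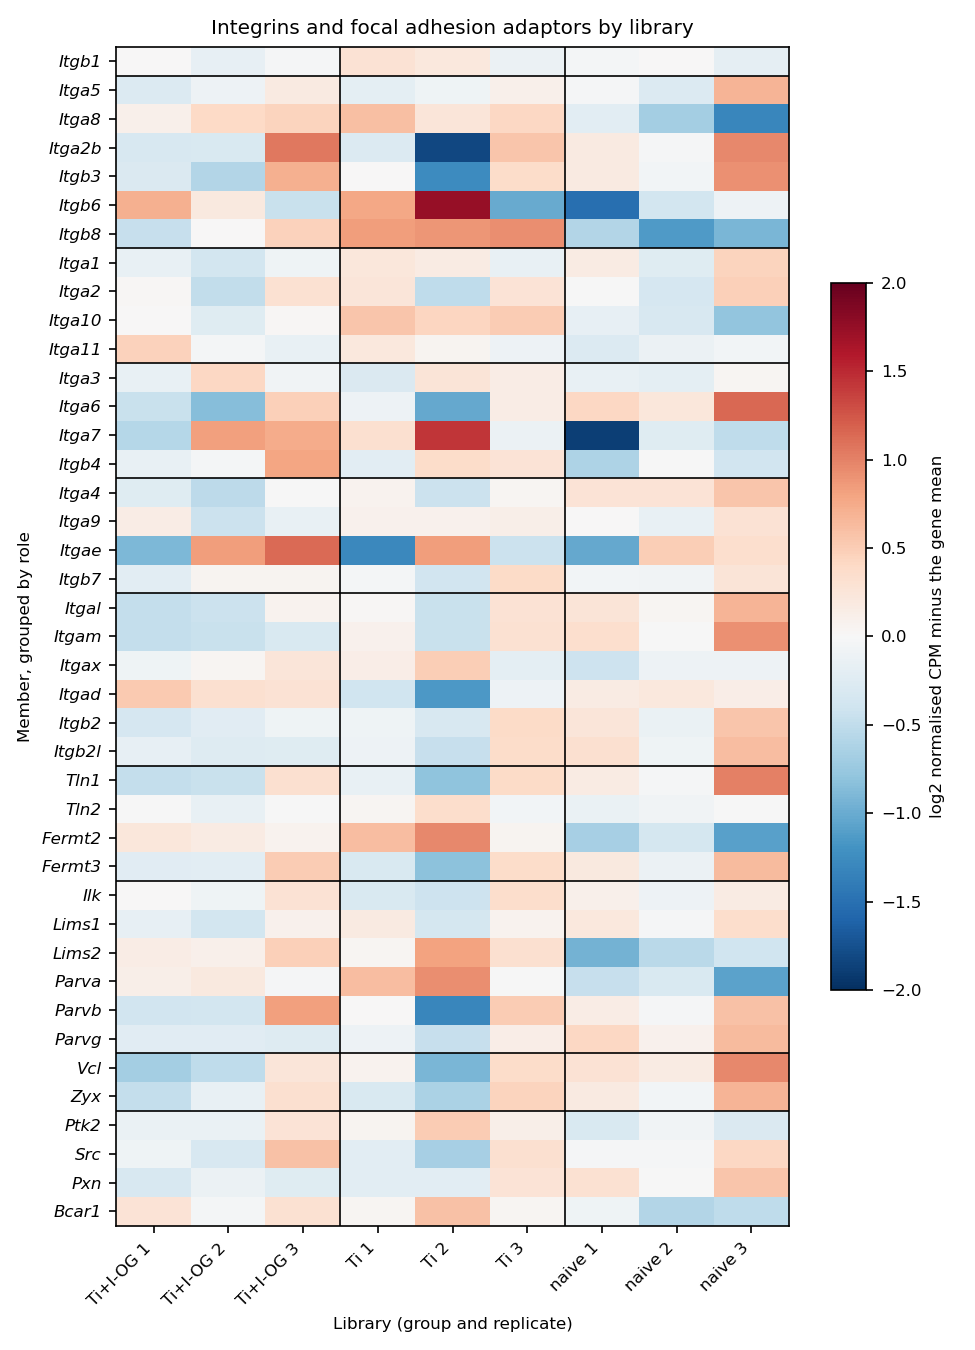
Level of each tested integrin and adaptor in each library, as the difference of its log2 CPM from its own mean over the 9 libraries, with genes in rows grouped by role (lines divide the roles) and libraries in columns from Ti+I-OG through Ti to naive. Naive library 3 is the highest library for 18 of the 41 genes and Ti library 2 is the lowest for 15.

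Per unit of transcript length, the leukocyte chain Itgb2 led the set. Its mean FPKM (fragments per kilobase, scaled to depth) over the 9 libraries was 176, with a range of 123 to 272. Zyx, a LIM protein of stress fibres and mature adhesions, followed at 151 and Ilk, the scaffold of the ILK complex, at 108. Itgam, the alpha chain of the myeloid receptor Mac-1, had 102, the blood-cell kindlin Fermt3 96 and Itgb1, the beta chain shared by most matrix receptors, 90.4. The ranges of these genes across libraries overlapped, so their order is one of means. At the low end stood Itga10 at 1.36, Itga11 at 1.06, Itga8 at 0.495, Itgb6 at 0.279, and Itgae and Itgb8 at 0.141 and 0.14. Among alpha chains of the set, Itgam made up 38.1% ± 5.32 of the summed FPKM in Ti+I-OG, 45.8% ± 0.973 in Ti and 46.6% ± 2.8 in naive (SD, n = 3 each). Among beta chains, Itgb2 made up 40.6% ± 2.63 in Ti+I-OG, 42.1% ± 3.3 in Ti and 44.2% ± 1.9 in naive.

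Against naive tibiae, Ti tibiae had higher levels of 5 of the 41 genes: the kindlin Fermt2, the parvin Parva, the PINCH protein Lims2, and the integrin chains Itgb8 and Itga10. That is 12.2% of the set, where 4.05% of all 14211 genes were higher by the same rule (edgeR quasi-likelihood test, adjusted p under 0.05 over all genes) and 6.43% changed in either direction. No gene of the set was lower at that threshold, where 2.39% of all genes were. At an unadjusted p under 0.05, edgeR placed 4 genes lower (Itga4, Itga6, Itgad and Parvg, 9.76%, against 12.4% of all genes), and DESeq2 called Itgad and Parvg lower after adjustment. The median log2 fold change of the set was -0.08, with 17 genes above 0 and 24 below, beside 0.01 for all genes.

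Fermt2, the kindlin of fibroblasts, muscle and bone-forming cells, gave the smallest p of the set. It had 32.7, 31.3 and 29.3 CPM in Ti+I-OG and 42.8, 54.3 and 28.9 CPM in Ti, against 17.7, 21.9 and 13.2 CPM in naive. Every particle-treated library lay above every naive library, and Ti overlapped Ti+I-OG. The log2 fold change was 1.26 in Ti against naive (SE 0.23, edgeR adjusted p = 0.0142), and 0.83 in Ti+I-OG against naive (SE 0.23, edgeR adjusted p = 0.049). In Ti against naive the call held in 7 of the 9 leave-one-out fits. It was lost without Ti library 1 (adjusted p = 0.0703) and without Ti library 2 (0.0686). In Ti+I-OG against naive it held in 3 of 9 and was lost with DESeq2's size factors (0.052), library totals (0.0707) and limma on log2(FPKM + 1) (0.117), and without naive library 3 and Ti library 2 together (0.0932). Fermt3, which serves the integrins of platelets and leukocytes, had 200, 203 and 331 CPM in Ti+I-OG, 189, 132 and 301 CPM in Ti, and 268, 215 and 362 CPM in naive. Its groups overlapped, and neither comparison with naive passed (log2 fold changes of -0.20 in Ti+I-OG and -0.44 in Ti, edgeR adjusted p = 0.674 and 0.362).

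Parva encodes alpha-parvin, the widely expressed actin-binding member of the ILK complex. It had 22.6, 23.8 and 20.6 CPM in Ti+I-OG and 32.2, 40.0 and 20.8 CPM in Ti, against 15.1, 17.0 and 9.93 CPM in naive. All 6 particle-treated libraries were above the naive ones. Ti differed from naive by a log2 fold change of 1.15 (SE 0.24, edgeR adjusted p = 0.0233), and Ti+I-OG from naive by 0.68 (SE 0.24), which did not pass (adjusted p = 0.0945, and 0.00897 with replicate number as a block). The labels state no pairing by replicate number. Lims2 encodes PINCH2, the less abundant of the PINCH proteins. It had 4.07, 3.92 and 5.10 CPM in Ti+I-OG and 3.78, 6.39 and 4.60 CPM in Ti, against 1.90, 2.52 and 2.77 CPM in naive, again with no overlap. Its log2 fold change was 1.04 in Ti against naive (SE 0.27, edgeR adjusted p = 0.0447) and 0.87 in Ti+I-OG against naive (SE 0.27, adjusted p = 0.0675, but 0.0373 with DESeq2 and 0.029 with the block). The Parva call in Ti held in 5 of the 9 leave-one-out fits and was lost without naive library 1 or 3 or Ti library 1 or 2 (adjusted p up to 0.108). The Lims2 call held in 1 of 9 (adjusted p up to 0.205), the fit without Ti library 3. With all libraries, limma on log2(FPKM + 1) lost both calls in Ti (adjusted p = 0.0559 for Parva and 0.171 for Lims2). Library totals also lost that of Lims2 (edgeR adjusted p = 0.0602).

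Itgb8 pairs with alpha V in a receptor that releases active TGF-beta from its latent form. It was among the rarest transcripts of the set, with 15, 15 and 25 counts in Ti+I-OG and 39, 46 and 40 in Ti, against 18, 10 and 13 in naive. In CPM it had 0.744, 1.03 and 1.42 in Ti+I-OG and 1.84, 1.90 and 1.96 in Ti, against 0.683, 0.467 and 0.545 in naive. The 3 groups did not overlap in CPM, with Ti highest and Ti+I-OG between, but Ti+I-OG overlapped naive in FPKM. Ti stood above naive by a log2 fold change of 1.73 (SE 0.38, edgeR adjusted p = 0.0255). The call held in 5 of the 9 leave-one-out fits and was lost without naive library 1 or 3 or Ti library 1 or 2 (adjusted p up to 0.102). It was also lost with limma on log2(FPKM + 1) (adjusted p = 0.122).

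Itga10, the collagen-binding chain best known from cartilage, had 6.64, 5.56 and 6.74 CPM in Ti+I-OG and 9.68, 8.95 and 9.45 CPM in Ti, against 5.89, 5.28 and 3.81 CPM in naive. The Ti libraries were above all others, and Ti+I-OG overlapped naive. On the log2 scale the fold change was 0.91 in Ti against naive (SE 0.20, edgeR adjusted p = 0.0265) and 0.34 in Ti+I-OG against naive (SE 0.21, adjusted p = 0.283). The call was lost without naive library 3, Ti library 1 or Ti library 2 (adjusted p up to 0.105), and with limma on log2(FPKM + 1) (0.0502). An exon of Itga10 overlaps that of Gm42957, which had 0 counts in Ti+I-OG, 12 in Ti and 3 in naive, beside 334 in Ti+I-OG, 615 in Ti and 359 in naive for Itga10.

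**Figure D2:**
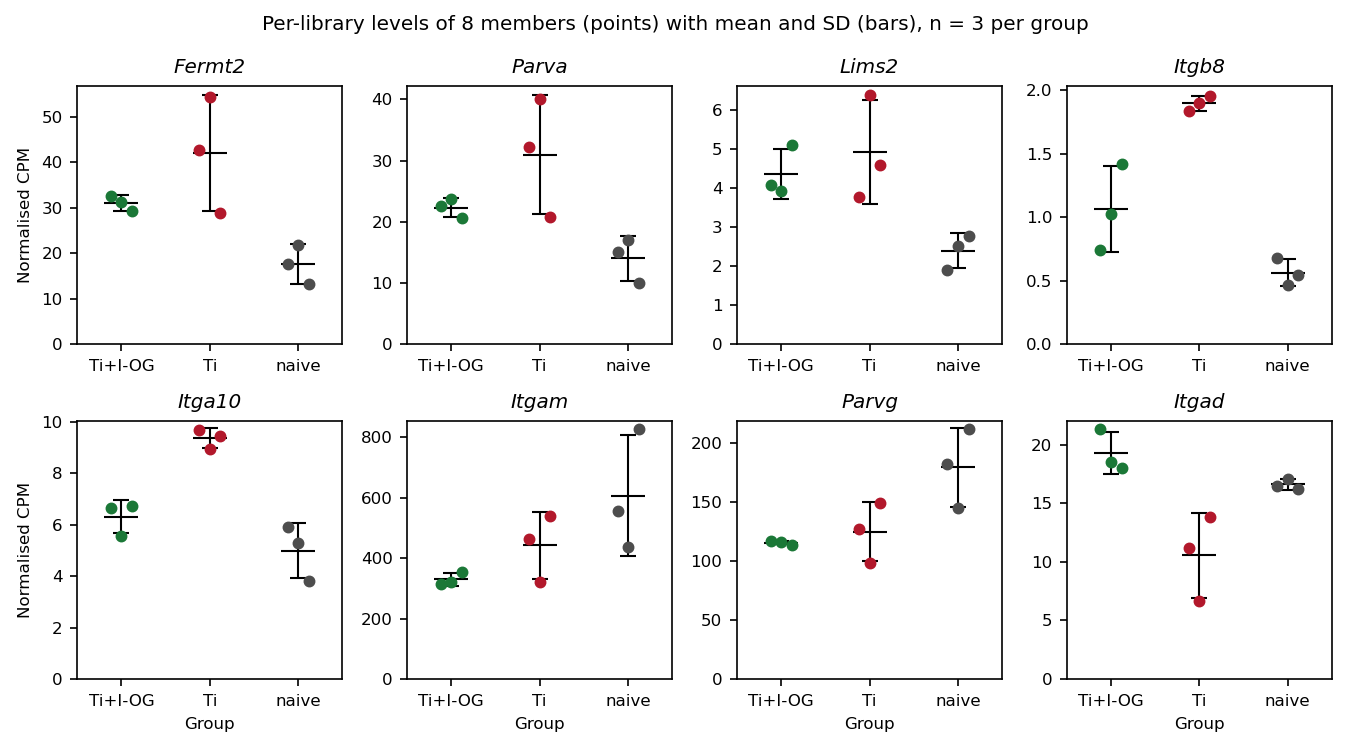
Level in TMM-normalised CPM, on linear axes from 0, of the 7 genes called in any comparison and of Itgad, with a point for each library and bars for the group mean and SD (n = 3), groups running from Ti+I-OG through Ti to naive. Fermt2, Parva, Lims2 and Itgb8 are higher in all 6 particle-treated libraries than in the naive ones, and Itgam and Parvg are lower in all 3 Ti+I-OG libraries.

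Without naive library 3 and Ti library 2 together, a setting chosen after seeing the data, none of these 5 genes passed. Their log2 fold changes in Ti against naive were then 0.86 for Fermt2, 0.73 for Parva, 0.93 for Lims2, 1.70 for Itgb8 and 0.78 for Itga10, all of the same sign (edgeR adjusted p of 0.0974 to 0.277). That fit called 113 genes in all, against 914 with all libraries.

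The same libraries differed in connective-tissue markers. Tendon and fibrous-tissue markers summed to 324 to 691 CPM in Ti+I-OG and 437 to 979 CPM in Ti, against 53.5 to 102 CPM in naive, and 7 of 8 passed as higher in Ti and 6 of 8 in Ti+I-OG. Bone matrix markers summed to 3970 to 6070 CPM in Ti+I-OG and 6210 to 8910 CPM in Ti, against 1410 to 3490 CPM in naive. Cartilage markers summed to 256 to 624 CPM in Ti+I-OG and 938 to 1100 CPM in Ti, against 198 to 414 CPM in naive. The bone matrix and cartilage sums each separated Ti from both other groups, but 0 of 8 markers in each list passed between Ti+I-OG and Ti. Against naive, 5 of 8 bone matrix and 4 of 8 cartilage markers passed as higher in Ti. In Ti+I-OG against naive, 0 of 8 and 1 of 8 did. Smooth muscle and pericyte markers summed to 276 to 303 CPM in Ti+I-OG and 279 to 438 CPM in Ti, against 194 to 235 CPM in naive. Their part in the Fermt2, Parva, Lims2, Itgb8 and Itga10 results was not tested.

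**Figure D3:**
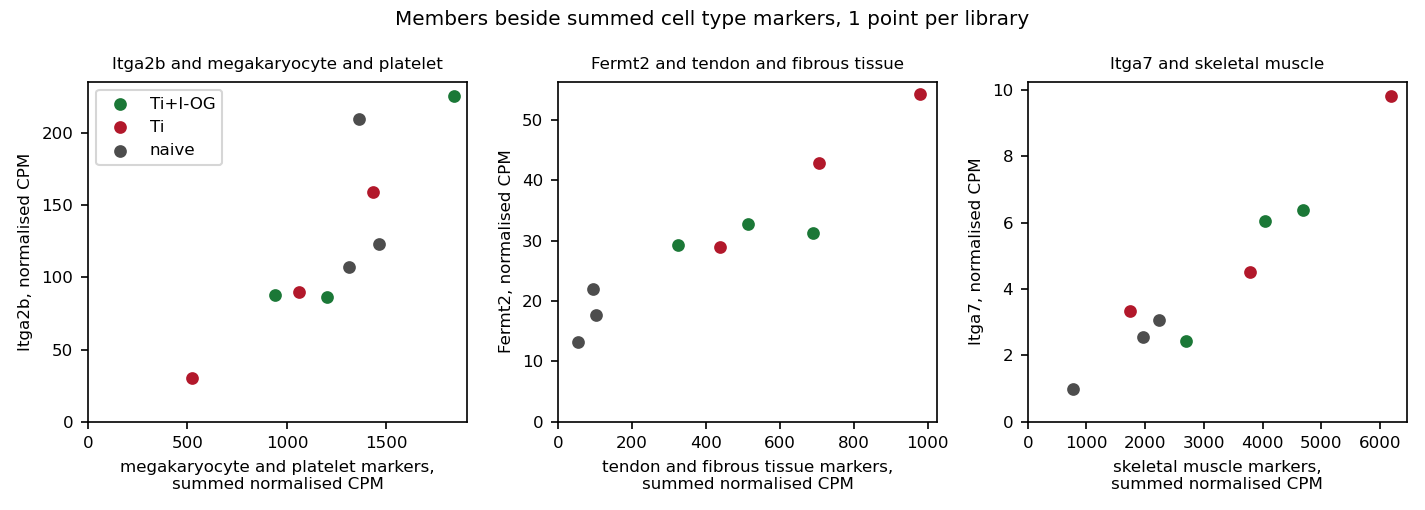
Normalised CPM of Itga2b, Fermt2 and Itga7 on the vertical axes against the summed normalised CPM of megakaryocyte and platelet, tendon and fibrous tissue, and skeletal muscle markers on the horizontal axes, with a point for each library coloured by group. Ti library 2 has the lowest megakaryocyte sum (524) and the lowest Itga2b (30.6), and naive library 3 has the lowest tendon sum (53.5) and the lowest Fermt2 (13.2). Naive library 3 has a lower megakaryocyte sum than naive library 1 (1360 against 1460) but more Itga2b (210 against 123).

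Promoter sequence is shown for 4 genes of the set. Fermt2 and Itgb8 were called higher in Ti than in naive, and Itgam lower in Ti+I-OG than in naive. Fermt3, the blood-cell counterpart of Fermt2, was not called in the edgeR fit of all libraries. Each run is the 250 bases upstream of the RefSeq gene start in build GRCm38.p6, read 5′ to 3′ on the gene's strand. Capitals mark the letters GAGGAA (the core bound by PU.1, a factor of myeloid cells), GGAATG (the site of TEAD factors) or GGGCGG (the GC box), on either strand. GAGGAA and GGAATG can overlap where the letters run on from one into the other.
Fermt2 (chr14:45530066-45530315, minus strand): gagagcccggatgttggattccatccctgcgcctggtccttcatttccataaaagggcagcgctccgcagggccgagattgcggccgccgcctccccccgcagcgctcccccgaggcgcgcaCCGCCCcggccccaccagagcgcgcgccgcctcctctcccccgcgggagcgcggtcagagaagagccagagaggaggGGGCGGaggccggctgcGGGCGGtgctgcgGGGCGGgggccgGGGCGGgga
Itgb8 (chr12:119238277-119238526, minus strand): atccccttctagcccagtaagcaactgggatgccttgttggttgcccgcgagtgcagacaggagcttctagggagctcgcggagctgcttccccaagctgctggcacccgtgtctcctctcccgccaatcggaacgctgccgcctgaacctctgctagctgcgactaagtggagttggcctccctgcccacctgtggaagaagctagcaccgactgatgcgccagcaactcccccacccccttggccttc
Itgam (chr7:128062390-128062639, plus strand): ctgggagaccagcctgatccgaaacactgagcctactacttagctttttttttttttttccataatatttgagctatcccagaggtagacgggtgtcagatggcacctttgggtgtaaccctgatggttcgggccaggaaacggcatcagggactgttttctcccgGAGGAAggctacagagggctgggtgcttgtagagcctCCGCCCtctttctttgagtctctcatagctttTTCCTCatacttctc
Fermt3 (chr19:7019470-7019719, minus strand): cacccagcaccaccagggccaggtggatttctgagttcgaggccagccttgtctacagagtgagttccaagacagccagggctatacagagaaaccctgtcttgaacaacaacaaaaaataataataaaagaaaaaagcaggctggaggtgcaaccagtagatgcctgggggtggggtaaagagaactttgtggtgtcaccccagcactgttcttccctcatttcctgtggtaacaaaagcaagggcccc

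Fermt2 held 5 GC boxes, and Itgam held 2 PU.1 cores and 1 GC box. None of the 3 motifs occurred in the window of Itgb8 or of Fermt3, though that of Fermt3 held TGTGGT. Of the 42 genes, 29 had a listed promoter. GAGGAA occurred in 12 of these (41.4%), against 25.9% of all 27025 genes with a listed promoter. A gene counted if any of its listed promoters held the letters. GGAATG occurred in 3 (10.3%), against 14.4% of all, and GGGCGG in 15 (51.7%), against 35.4%. Searches for TGTGGT, the RUNX core, and TGANTCA, the AP-1 site, found 5 and 2 of the 29 (17.2% and 6.9%), against 15.9% and 7.82% of all genes with a listed promoter. A match of letters describes the sequence and shows no binding.

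Between Ti+I-OG and Ti tibiae, no gene of the set passed. edgeR called 6 of 14211 genes, 0.0422%, all higher in Ti+I-OG. At an unadjusted p under 0.05 it placed 3 of the 41 genes (7.32%, against 7.84% of all genes). Itgad was on the higher side, where 4.19% of all genes were, and Itga10 and Itgb8 on the lower, where 3.65% were. DESeq2 and limma on log2(FPKM + 1) called 0 of the 41 as well. The set's median log2 fold change was -0.11, with 14 genes above 0 and 27 below, beside -0.00 for all genes. With library totals as the scaling, which moved the median of all genes to -0.12, 8 genes were above 0.

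For the genes that were higher in Ti than in naive, the hydrogel group lay on the lower side of Ti, within intervals that mostly reached 0. The log2 fold change of Ti+I-OG against Ti was -0.43 for Fermt2 (95% interval -0.93 to 0.06) and -0.47 for Parva (-1.0 to 0.05). It was -0.18 for Lims2 (-0.76 to 0.41). Those of Itgb8 and Itga10 were -0.84 (-1.65 to -0.03) and -0.56 (-1.01 to -0.12), with edgeR adjusted p of 0.63 and 0.628. All 3 Ti+I-OG libraries were below all 3 Ti libraries for these 2 chains, a separation in that direction seen in 6.71% of all genes. These comparisons share the Ti libraries with those against naive, so a high Ti value enters both with opposite sign.

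Itgad encodes alpha D, a partner of the beta 2 chain found on macrophages. It had 21.3, 18.5 and 18.0 CPM in Ti+I-OG, 11.2, 6.68 and 13.8 CPM in Ti, and 16.5, 17.1 and 16.2 CPM in naive. Ti was the lowest group and Ti+I-OG the highest, with no overlap among the 3 groups in CPM. In FPKM, Ti+I-OG (4.72 to 6.71) overlapped naive (4.57 to 5.7). In CPM, 7.75% of all genes were likewise higher in every Ti+I-OG than in any Ti library. Ti+I-OG differed from Ti by a log2 fold change of 0.87 (95% interval 0.38 to 1.36), which did not pass (edgeR adjusted p = 0.628). In Ti against naive it was -0.66 (SE 0.22), which did not pass (adjusted p = 0.0933) except without Ti library 3 (0.0259), with DESeq2 (0.0424) or with replicate number as a block (0.0373). Without Ti library 2 the 2 values were 0.63 and -0.42. An exon of Itgad overlaps Cox6a2, a muscle gene on the opposite strand, and the library kit does not mark strand. Cox6a2 had 1566 counts in Ti+I-OG, 2058 in Ti and 925 in naive, beside 1017 in Ti+I-OG, 680 in Ti and 1189 in naive for Itgad, so the group with the fewest Itgad counts had the most Cox6a2 counts.

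**Figure D4:**
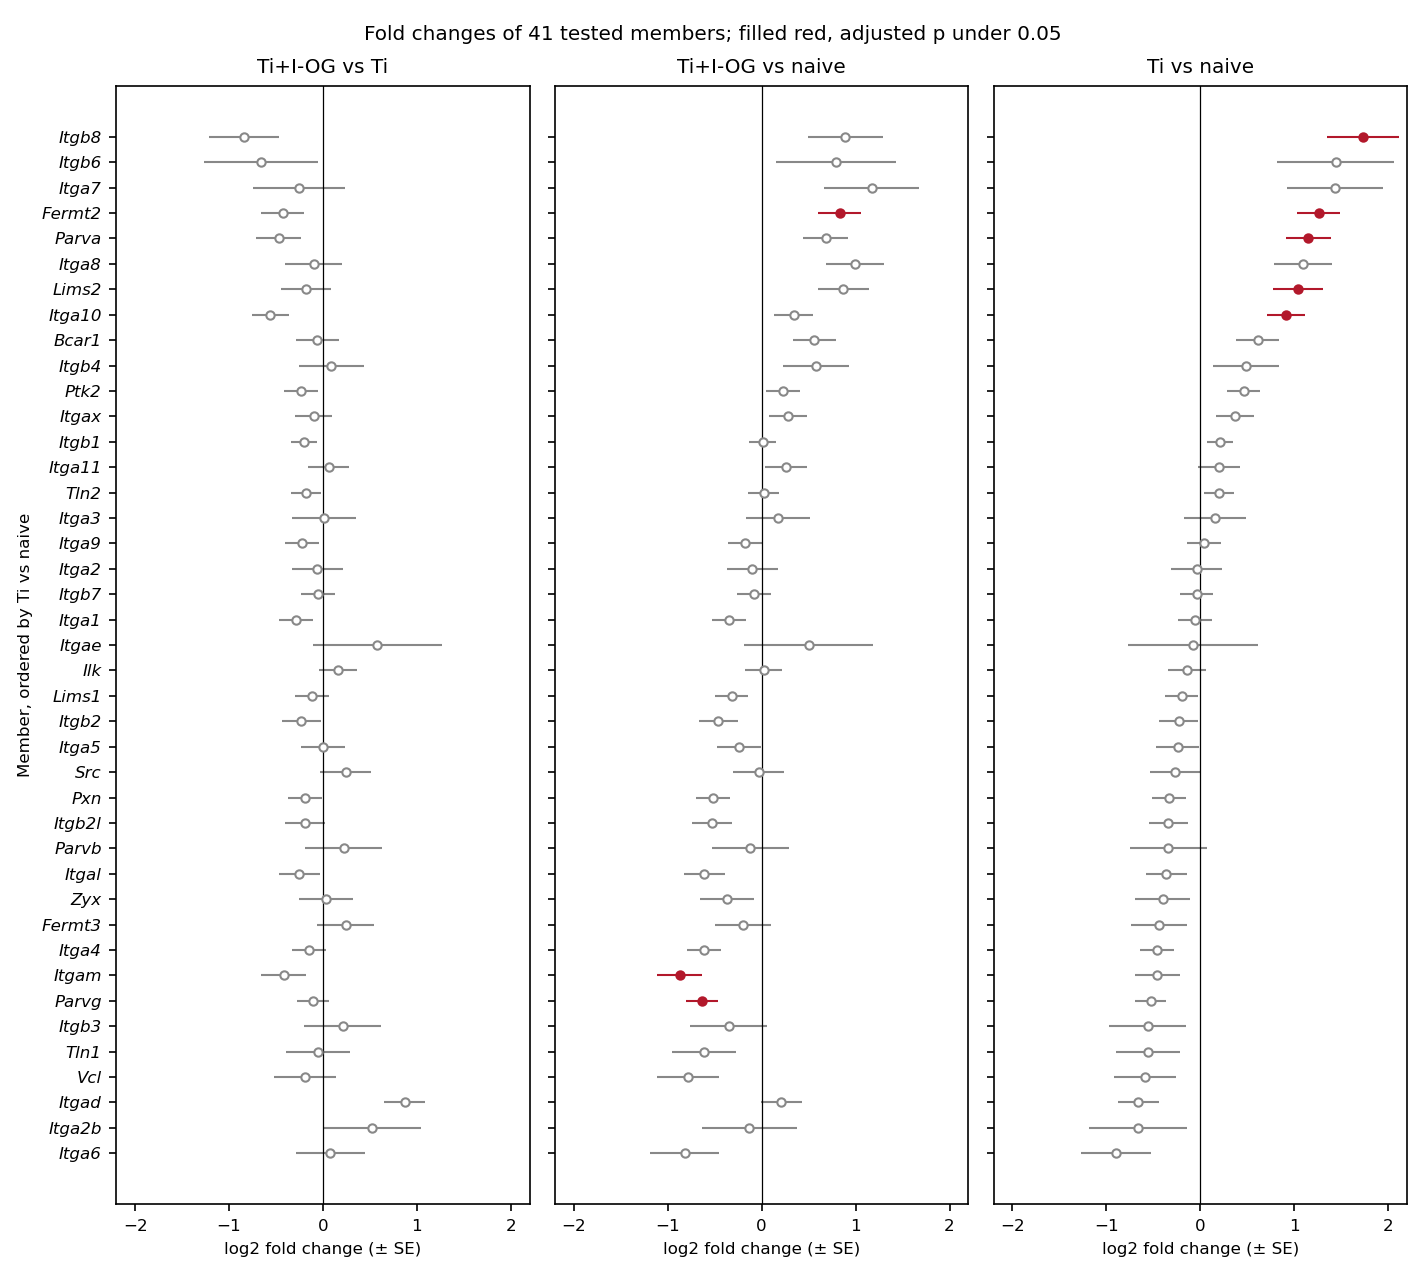
Log2 fold change of each tested gene in Ti+I-OG against Ti, in Ti+I-OG against naive and in Ti against naive, as points with bars of ± 1 SE from the edgeR fit, genes ordered by Ti against naive, filled red where the adjusted p is under 0.05. Of the 41 genes, 0, 3 and 5 are filled in these panels.

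Against naive tibiae, Ti+I-OG tibiae had lower Itgam and Parvg and higher Fermt2, 3 of the 41 genes or 7.32%, where 8.26% of all genes changed. By direction, 1 gene was higher (3.84% of all genes were) and 2 were lower (4.43% of all genes were). The share of the set that was called is near the share of all genes. With replicate number as a block, 15 of the 41 genes passed (36.6%, against 24.3% of all genes), 5 of them higher (12.1% of all genes were) and 10 lower (12.2% of all genes were). The set's median log2 fold change was -0.08, with 19 genes above 0 and 22 below, beside 0.03 for all genes. Over all genes edgeR called 545 higher and 629 lower. With library totals the split was 361 higher and 2041 lower, and the median of all genes moved to -0.16.

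Itgam had 316, 321 and 356 CPM in Ti+I-OG and 465, 323 and 541 CPM in Ti, against 555, 437 and 829 CPM in naive. Ti+I-OG lay below every naive library, and Ti overlapped both. The log2 fold change of Ti+I-OG against naive was -0.87 (SE 0.24, edgeR adjusted p = 0.0472), and that of Ti against naive was -0.46 (SE 0.24, adjusted p = 0.24). Parvg encodes gamma-parvin, the parvin of blood cells. It had 117, 116 and 114 CPM in Ti+I-OG and 127, 98.8 and 149 CPM in Ti, against 182, 145 and 212 CPM in naive. The Ti+I-OG libraries were nearly equal and below all of naive. The log2 fold change was -0.63 in Ti+I-OG against naive (SE 0.17, edgeR adjusted p = 0.0469) and -0.53 in Ti against naive (SE 0.17, adjusted p = 0.0856). Each of these calls held in 3 of the 9 leave-one-out fits and was lost without naive library 1 or 3, Ti library 1 or any Ti+I-OG library (adjusted p up to 0.165 for Itgam and 0.155 for Parvg). Without naive library 3 and Ti library 2 the values were -0.58 and -0.50 (adjusted p = 0.0839 and 0.0973).

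In the edgeR fit of all libraries none of the other beta 2 integrins passed, with Itgb2, Itgal and Itgb2l below 0 and Itgax (0.28) and Itgad (0.21) above 0 as log2 fold changes of Ti+I-OG against naive. Itgal passed with DESeq2, and Itgal and Itgb2l with library totals or the block. Itgb2, the shared beta chain, had 383, 412 and 454 CPM in Ti+I-OG, 452, 385 and 628 CPM in Ti, and 567, 441 and 705 CPM in naive. Of the Ti+I-OG libraries, library 3 alone exceeded a naive library, and Ti overlapped naive. Its log2 fold change in Ti+I-OG against naive was -0.46 (SE 0.21, adjusted p = 0.171, and 0.0456 with the block). The 6 genes of the beta 2 family had a median log2 fold change of -0.49 in Ti+I-OG and -0.35 in Ti against naive. FPKM of Itgam per FPKM of Itgb2 was 0.512, 0.471 and 0.495 in Ti+I-OG, 0.638, 0.512 and 0.528 in Ti, and 0.590, 0.595 and 0.732 in naive. Neutrophil markers summed to 27200 to 40200 CPM in Ti+I-OG, 31100 to 41400 CPM in Ti and 36300 to 48600 CPM in naive, with 1 of 10 lower at the threshold in Ti+I-OG and 2 of 10 in Ti. Ti+I-OG library 3 had the lowest neutrophil sum (27200 CPM) but the highest Itgam of its group (356 CPM). Macrophage and monocyte markers summed to 1210 to 1410 CPM in Ti+I-OG, 1250 to 1440 CPM in Ti and 1200 to 1390 CPM in naive. Of these 9 markers, 1 was higher in Ti+I-OG than in naive and 0 were lower. Erythroid transcripts summed to 169000 to 183000 CPM in Ti+I-OG and 69800 to 103000 CPM in Ti, against 29600 to 96300 CPM in naive, and so took more of the Ti+I-OG libraries. The part of these marker lists in the Itgam and Parvg results was not tested.

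Itga4, the VCAM-1 receptor chain of marrow-homing cells, had 166, 137 and 197 CPM in Ti+I-OG and 206, 146 and 203 CPM in Ti, against 237, 238 and 291 CPM in naive. Both particle-treated groups lay below naive without overlap. Its log2 fold change in Ti+I-OG against naive was -0.61 (SE 0.18), just outside the threshold (edgeR adjusted p = 0.0546). It passed with DESeq2's size factors (0.0496), library totals (0.0214), no filter (0.0425), DESeq2 (0.0116), limma on FPKM (0.0299) and the block (0.00625), and without naive library 2 (0.0489) or Ti library 2 (0.0393). The value without naive library 3 was -0.53 (edgeR adjusted p = 0.167). In Ti against naive it was -0.46, and -0.21 without naive library 3 and Ti library 2. Its gut-homing partner Itgb7 had 47.1, 56.5 and 56.4 CPM in Ti+I-OG, 52.7, 41.7 and 70.7 CPM in Ti, and 52.5, 52.0 and 64.9 CPM in naive, with overlapping groups and a log2 fold change of -0.08 (SE 0.18).

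Chains shared with platelets and osteoclasts differed widely between libraries of a group. Itgb3, the beta chain of the platelet fibrinogen receptor and of the osteoclast vitronectin receptor, had 193, 157 and 382 CPM in Ti+I-OG, 235, 98.4 and 302 CPM in Ti, and 267, 225 and 443 CPM in naive. Its platelet partner Itga2b had 86.4, 87.8 and 226 CPM in Ti+I-OG, 90.1, 30.6 and 159 CPM in Ti, and 123, 107 and 210 CPM in naive. Both were lowest in Ti library 2, where megakaryocyte markers summed to 524 CPM, the least of the 9 libraries, and high in Ti+I-OG library 3, where they summed to 1840 CPM, the most. Other libraries did not follow that order. Naive library 3 had more Itgb3 and Itga2b than naive library 1 but a lower marker sum (1360 against 1460 CPM). The part of megakaryocytes in the Itgb3 and Itga2b values was not tested. The log2 fold changes of Itgb3 were -0.56 in Ti against naive (95% interval -1.46 to 0.34), 0.21 in Ti+I-OG against Ti (-0.70 to 1.11) and -0.35 in Ti+I-OG against naive (-1.25 to 0.55). Osteoclast markers differed by group: 6 of 8 passed as higher in Ti+I-OG and in Ti than in naive, and 0 of 8 passed between Ti+I-OG and Ti. The intervals of Itgb3 leave room for changes of either sign. Its values against naive were -0.03 in Ti+I-OG and -0.24 in Ti without naive library 3.

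Itgb1 varied least among the abundant chains, with 336, 297 and 330 CPM in Ti+I-OG, 410, 389 and 309 CPM in Ti, and 324, 335 and 296 CPM in naive. The groups overlapped, and its log2 fold changes ran from -0.20 to 0.21 over the 3 comparisons, with an SE of 0.14. Itga2, the collagen-binding alpha chain with the highest mean FPKM, had 26.7, 18.6 and 32.5 CPM in Ti+I-OG, 30.9, 18.5 and 31.8 CPM in Ti, and 25.9, 20.8 and 36.5 CPM in naive, also with full overlap. Its log2 fold changes lay between -0.10 and -0.04 (SE 0.27).

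None of the 4 laminin-binding chains passed in the edgeR fit of all libraries. Itga6, found on stem cells, platelets and endothelium, had 34.3, 26 and 64.9 CPM in Ti+I-OG and 43.6, 23.1 and 52.1 CPM in Ti, against 62.5, 54.5 and 104 CPM in naive. All Ti libraries lay below naive, but the log2 fold change of -0.90 did not pass (SE 0.37, edgeR adjusted p = 0.146), and it was -0.58 without naive library 3 and -0.29 without that library and Ti library 2. For Ti+I-OG against naive it was -0.82 (adjusted p = 0.16, and 0.00391 with the block), and -0.51 without naive library 3. Itga7, the laminin receptor of skeletal muscle, had 2.43, 6.39 and 6.06 CPM in Ti+I-OG and 4.53, 9.82 and 3.33 CPM in Ti, against 0.987, 3.08 and 2.56 CPM in naive. All Ti libraries lay above naive, and the log2 fold change of 1.43 did not pass either (SE 0.51, adjusted p = 0.108, and 0.04 with DESeq2). It was 0.83 without Ti library 2. Its value in Ti+I-OG against naive was 1.17 (adjusted p = 0.152, and 0.0311 with the block). Skeletal muscle markers summed to 2700 to 4690 CPM in Ti+I-OG and 1750 to 6190 CPM in Ti, against 763 to 2230 CPM in naive, and both they and Itga7 were highest in Ti library 2 and lowest in naive library 1. The part of muscle in the Itga7 values was not tested. Itga8, the nephronectin receptor chain, stood at 0.99 in Ti+I-OG (edgeR adjusted p = 0.0663) and 1.09 in Ti (0.0564) against naive, as log2 fold changes with an SE of 0.31. DESeq2 called it in both comparisons, as did the block.

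Among adaptors of the actin link and of signalling, Vcl, Zyx and Pxn were highest in naive library 3. Vcl, which encodes vinculin, had 109, 123 and 207 CPM in Ti+I-OG and 183, 93.0 and 225 CPM in Ti, against 214, 197 and 342 CPM in naive. Zyx had 239, 300 and 415 CPM in Ti+I-OG and 269, 214 and 452 CPM in Ti, against 379, 322 and 532 CPM in naive. Groups overlapped for both, and the log2 fold changes of Ti+I-OG against naive were -0.78 for Vcl (SE 0.33, adjusted p = 0.142, and 0.012 with the block) and -0.37 for Zyx (SE 0.29, adjusted p = 0.409). Pxn, which encodes the scaffold paxillin, had 142, 162 and 149 CPM in Ti+I-OG and 152, 152 and 213 CPM in Ti, against 217, 176 and 258 CPM in naive. Ti+I-OG lay below all of naive, with a log2 fold change of -0.52 that edgeR did not call (SE 0.18, adjusted p = 0.078). DESeq2 (0.0308), limma on FPKM (0.0308), library totals (0.0248), the block (0.0263) and the fit without naive library 2 (0.0347) did. The log2 fold changes of Ti+I-OG against naive without naive library 3 were -0.51 for Vcl, -0.16 for Zyx and -0.40 for Pxn. Ilk, by contrast, had 188, 177 and 229 CPM in Ti+I-OG, 152, 141 and 239 CPM in Ti, and 201, 174 and 210 CPM in naive, with log2 fold changes between -0.14 and 0.16 (SE 0.20). Ptk2, which encodes FAK, and Bcar1, which encodes p130Cas, were above all naive libraries in Ti in CPM, though Ptk2 was not in FPKM. Their log2 fold changes of 0.46 and 0.61 did not pass (edgeR adjusted p = 0.136 and 0.119).

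The other genes passed in no comparison of the edgeR fit of all libraries. They are the collagen and laminin receptor chains Itga1, Itga11, Itga3 and Itgb4, the fibronectin receptor chain Itga5, the TGF-beta-releasing Itgb6, the leukocyte chains Itgal, Itgax, Itgb2l, Itga9 and Itgae, and the adaptors Tln1, Tln2, Lims1, Parvb and Src. Their log2 fold changes ran from -0.66 (Itgb6) to 0.58 (Itgae) in Ti+I-OG against Ti, from -0.61 (Tln1 and Itgal) to 0.79 (Itgb6) in Ti+I-OG against naive, and from -0.56 (Tln1) to 1.44 (Itgb6) in Ti against naive. Other fits of Ti+I-OG against naive made calls here: DESeq2 called Itgal, library totals called Itgal and Itgb2l, the fit without naive library 2 called Itgb2l, and the block called Itgal, Itgb2l and Tln1. In Ti against naive, the fit without Ti library 3 called Itgb6, and the block called Itgal and Tln1. Itgb6 had 1.78, 1.24 and 0.793 CPM in Ti+I-OG, 1.84, 3.63 and 0.539 CPM in Ti, and 0.38, 0.841 and 1.01 CPM in naive. It was both highest and nearly lowest within Ti. Tln1, the talin of blood cells and most tissues, had 356, 362 and 617 CPM in Ti+I-OG, 448, 283 and 647 CPM in Ti, and 554, 487 and 998 CPM in naive, lowest in Ti library 2 and highest in naive library 3.

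Separation of the libraries in CPM was also counted without regard to a p-value. All Ti libraries were above all naive ones for 9 of the 41 genes (22%, against 14.3% of all genes) and below them for 3 (7.32%, against 12.9%). All Ti+I-OG libraries were above naive for 8 (19.5%, against 18.7%) and below for 5 (12.2%, against 16.9%). In FPKM some separations from naive were lost, among them Lims2 in both groups, Itga7 and Ptk2 in Ti, and Itgb8 and Itgad in Ti+I-OG. Others were gained, such as Itgb2 and Vcl in Ti+I-OG, below all of naive. Over the 3 groups at once, the F test called Fermt2, Itga10, Itgb8 and Parva, 4 of 41 genes or 9.76%, against 5.77% of all genes.

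Several adaptors come as related forms, whose ratios within a library do not depend on scaling. Fermt2, Parva and Lims2 were called higher in Ti, and Parvg lower in Ti+I-OG, so the ratios with these genes partly restate those calls. Parvb, another parvin (mean FPKM 29.7), was not called and enters no ratio. The mean log2 ratio of Parva to Parvg FPKM was -3.10 ± 0.08 in Ti+I-OG and -2.80 ± 0.76 in Ti, against -4.42 ± 0.66 in naive (SD, n = 3 each). Every library of Ti+I-OG and of Ti was above every naive library. The differences from naive were 1.31 in Ti+I-OG and 1.62 in Ti, each with p = 0.1 in an exact two-sided permutation test, the smallest that 3 against 3 libraries allow (0.2 adjusted over 12 tests). The ratio of Fermt2 to Fermt3 was -3.19 ± 0.43 in Ti+I-OG and -2.53 ± 1.10 in Ti, against -4.22 ± 0.78 in naive. Its ranges overlapped naive, with differences of 1.03 in Ti+I-OG and 1.69 in Ti (exact permutation p = 0.2 each). The ratio of Lims2 to Lims1 was above naive in all libraries of both groups, and so was that of Tln2 to Tln1, though there the lowest Ti library (-5.46) and the highest naive library (-5.47) nearly met. For Lims2 to Lims1 the differences were 1.13 in Ti+I-OG and 0.97 in Ti, and for Tln2 to Tln1 they were 0.79 in Ti+I-OG and 1.05 in Ti (exact permutation p = 0.1 each). The Tln2 to Tln1 separation was lost with a pseudocount of 1 (exact permutation p = 0.2 in both) and with counts in place of FPKM (0.3 in both). Without Ti library 2 the differences of Ti from naive were 1.25 for Parva to Parvg, 1.18 for Fermt2 to Fermt3, 0.55 for Lims2 to Lims1 and 0.65 for Tln2 to Tln1. Without naive library 3 they were 1.26, 1.3, 1.01 and 0.72 in the same order, and those of Ti+I-OG from naive were 0.95, 0.64, 1.17 and 0.47. Between Ti+I-OG and Ti the 4 ratios differed by -0.66 to 0.16 (exact permutation p of 0.5 to 0.9). None passed after adjustment, and with these group sizes none could.

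**Figure D5:**
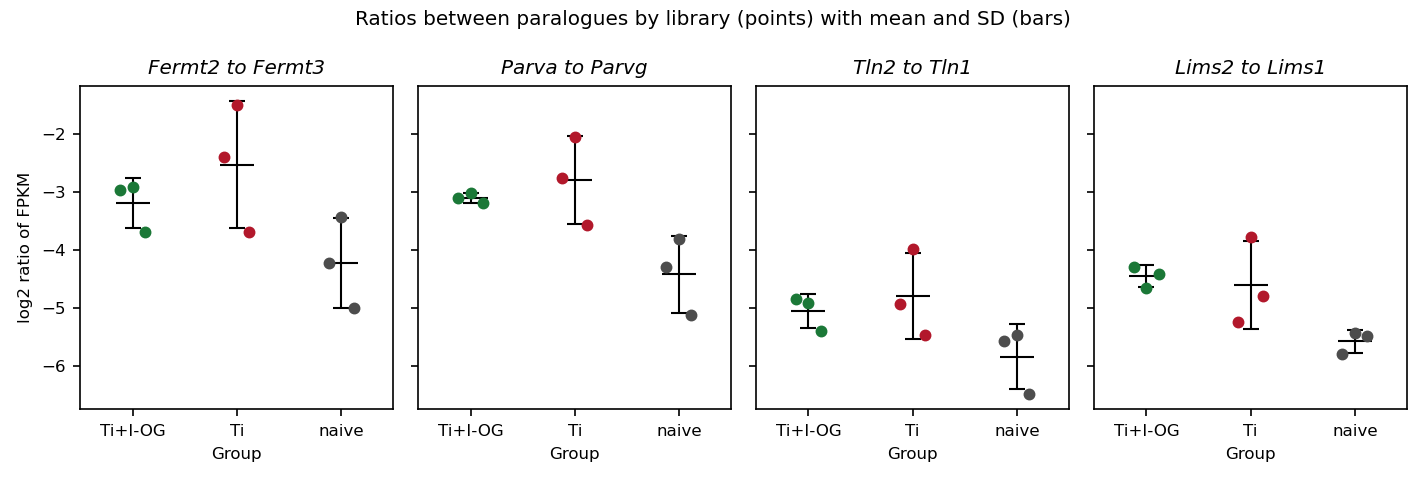
Log2 ratio of FPKM within each library for Fermt2 to Fermt3, Parva to Parvg, Tln2 to Tln1 and Lims2 to Lims1, with a point for each library, bars for the group mean and SD (n = 3), and groups running from Ti+I-OG through Ti to naive. The naive means (-4.22, -4.42, -5.84 and -5.58) are the lowest of the 3 groups for all 4 ratios.

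A pair of lists set the members beside their surroundings. Of 42 other focal adhesion proteins, 3 were higher in Ti than in naive: Cav1, the coat protein of caveolae (log2 fold change 1.78), Fblim1, which encodes the filamin-binding migfilin (0.68) and the actin-extending Enah (0.94). In Ti+I-OG against naive Cav1 was higher (1.32) and Nedd9, a relative of p130Cas, was lower (-0.44). The list's median log2 fold change was -0.11 in Ti and -0.15 in Ti+I-OG against naive, so most of it did not follow Cav1. Of 23 tested integrin ligands, 8 were higher in Ti than in naive and 4 in Ti+I-OG than in naive, with medians of 0.74 and 0.49. Col3a1, the collagen of loose and healing tissue, had log2 fold changes of 2.74 in Ti+I-OG and 3.23 in Ti against naive. Mfge8, an RGD protein of cell clearance, had 1.77 in Ti+I-OG and 1.92 in Ti, and Postn, a periosteal matrix protein, had 1.5 in Ti+I-OG and 1.62 in Ti. Tnc, the tenascin of tendon and repair, had 0.49 in Ti+I-OG and 0.86 in Ti. No gene of either list passed between Ti+I-OG and Ti.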

How the data were processed

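Polyadenylated RNA was made into unstranded libraries, per the labels' protocols. Tools named in the submitters' processing notes, with no role or order, are RSEM, StringTie 1.3.1, fastp, edgeR and DESeq2. Which aligner, build and annotation were used is not stated there or elsewhere in the labels. The authors deposited estimated counts per gene, not all whole (8.49% were fractional), which were rounded here, and FPKM values, fragments per kilobase scaled to depth.

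Genes passing filterByExpr were tested with edgeR 4.0.16 in R 4.3.3 (TMM, quasi-likelihood, 1 mean per group, 6 residual degrees of freedom, two-sided, Benjamini-Hochberg over 14211 genes, threshold 0.05). The fit was tested on simulated data. CPM values are counts scaled by TMM library sizes. Intervals of fold changes are 95% intervals from that fit. Floors of 3 counts cover counting error only. FPKM ratios had a pseudocount of 0.1. Alternatives were DESeq2 size factors, library totals, no filter, DESeq2 1.42.0, limma 3.58.1 on log2(FPKM + 1), a replicate block and each library left out. No pair of replicates was a copy (chi-square of their counts over genes, divided by its degrees of freedom, 12.9 to 132).

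Values in every library are given for members called in any test and, in each role, for the member with the highest mean FPKM and the one with the smallest F test p. Itga2b, Itgb6 and Tln1 were added after their values were seen. Same-numbered libraries correlated, in their deviations from group means, at 0.20, 0.11 and 0.27 between Ti+I-OG and naive, at 0.07, 0.20 and 0.22 between Ti+I-OG and Ti, and at -0.02, 0.33 and 0.24 between Ti and naive. Every pair exceeded 0.1 only between Ti+I-OG and naive, so blocked values stand mainly beside that comparison. Some are also given in Ti against naive (Itgad, Itga8, Itgal and Tln1), where this criterion was not met. The block's other calls in Ti against naive were Itga2b, Itgb3, Itgb8, Itga10, Itga6, Itga7, Itga4, Fermt2, Fermt3, Lims2, Parva, Parvg and Vcl. Between Ti+I-OG and naive, differently numbered libraries correlated at -0.22 to 0.05. Pairing by replicate number is read from the data, and no label states one. The criterion and the blocked p-values come from the same counts, so a blocked pass is no independent support for a call. Members, lists and tests were chosen with earlier results of these data known. Exon overlaps come from GENCODE M21: 12 members overlap another gene of the table (Itga1, Itga10, Itga7, Itga4, Itgam, Itgad, Tln1, Fermt3, Ilk, Lims2, Vcl and Zyx), so their counts are less certain.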

Additional observations from a re-analysis of the deposited data

How the results depend on the processing

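Calls changed with the library left out and with the test. A fit without a library also has fewer libraries to estimate the spread, so a lost call alone does not show dependence on that library. The called fold changes kept their sign in these fits, such as 0.8 to 1.2 for Lims2 in Ti against naive. With all libraries edgeR called 914 genes and 5 members in Ti against naive. DESeq2 called 1859 and 9, limma on log2(FPKM + 1) 556 and 1, and the fits that leave out a library 100 to 1999 and 0 to 8. Without naive library 3 and Ti library 2 together the counts were 113 and 0. Between Ti+I-OG and Ti, 6 genes were called, 3 with library totals, 16 with DESeq2 and 0 to 6 with a library left out, and 0 members throughout. In Ti+I-OG against naive, 1174 genes and 3 members were called, 2402 and 6 with library totals, 2440 and 8 with DESeq2, 1787 and 4 with limma, 59 to 2119 and 0 to 6 with a library left out, and 280 and 0 without that pair of libraries. The F test called 820 genes and 4 members. It called 7 members with library totals, 10 with DESeq2, 1 with limma, 0 to 4 with a library left out and 0 without that pair. All genes called by the F test were not counted under these alternatives, so these member counts have no share of all genes to be read against. For the 21 members named by rule, over the 3 comparisons, 859 values under an alternative kept sign and side of the threshold. Another 55 lost a call, 34 gained one and 60 changed sign. All 55 losses came from the 5 calls in Ti against naive and the 3 in Ti+I-OG against naive. Most of the 859 were values that were not calls to begin with. The causes were not tested.

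The replicate block called 2968 genes and 17 members in Ti against naive, and 3450 and 15 in Ti+I-OG against naive. It called 0 members between Ti+I-OG and Ti, and 15 members in the F test, where all genes were not counted. Numbers met the pairing criterion, itself read from these counts, between Ti+I-OG and naive alone, so the other blocked counts rest on a shared number. Of 15 calls in that comparison, 3 were also made without the block.

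The values that changed sign belong to genes that were not called in that comparison. Without that pair of libraries, log2 fold changes of Ti against naive were 0.12 for Itgb3, 0.42 for Itga2, 0.24 for Itgb7, 0.02 for Itgam, 0.10 for Itgb2, 0.02 for Fermt3, 0.06 for Ilk and 0.04 for Zyx. Those of Ti+I-OG against Ti were -0.14 for Itgb3, -0.20 for Itga6, 0.32 for Itga7, -0.00 for Fermt3, 0.06 for Lims2 and -0.18 for Zyx. Those of Ti+I-OG against naive were -0.04 for Itgb1, 0.15 for Itga2, 0.03 for Itgb7 and 0.02 for Fermt3. With library totals or limma, Itga6 was -0.02 and -0.06 and Zyx -0.08 and -0.01 in Ti+I-OG against Ti, and Ilk was -0.17 and -0.18 in Ti+I-OG against naive. There Itgb1 was -0.01 with DESeq2's size factors, no filter and DESeq2, -0.18 with library totals and -0.15 with limma. Leaving out a library gave ranges in Ti against naive of -0.21 to 0.19 for Itga2 and -0.26 to 0.12 for Itgb7. In Ti+I-OG against Ti they were -0.28 to 0.55 for Itgb3, -0.27 to 0.13 for Itga2, -0.40 to 0.33 for Itga6, -0.54 to 0.33 for Itga7, -0.21 to 0.18 for Itgb7, -0.05 to 0.61 for Fermt3, -0.34 to 0.06 for Lims2, -0.25 to 0.04 for Parvg, -0.53 to 0.08 for Vcl and -0.21 to 0.40 for Zyx. In Ti+I-OG against naive they were -0.06 to 0.05 for Itgb1, -0.30 to 0.13 for Itga2, -0.14 to 0.00 for Itgb7 and -0.11 to 0.08 for Ilk. The log2 ratio of Lims2 to Lims1 in Ti+I-OG against Ti was -0.03 from counts and -0.16 to 0.57 with a library left out. Those of Parva to Parvg and Tln2 to Tln1 ranged from -0.70 to 0.06 and -0.59 to 0.14.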
